A study of Oryza sativa with 4 samples.

Results

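The calcium sensor genes described here are the calmodulins (CAM), the calmodulin-like proteins (CML), the calcineurin B-like proteins (CBL) and the CBL-interacting protein kinases (CIPK) of rice. A gene was taken as a member where its symbol or a synonym, without an Os prefix, was CAM, CML, CBL or CIPK followed by a number. Among the named genes of RefSeq, 68 met this rule, and 57 of them had a probe set naming that gene alone, out of 17905 such genes on the array. The 57 comprised 3 CAM, 23 CML, 7 CBL and 24 CIPK genes. The other 11 genes (CML2, CML21, CML22, CBL1, CBL7, CIPK3, CIPK9, CIPK13, CIPK15, CIPK27 and CIPK33) were not analysed here.

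Plant cells answer many stimuli with a brief rise of cytosolic calcium, and these proteins read it. Calmodulins and calmodulin-like proteins bind calcium through EF hands and then change the activity of the proteins they bind. CBL proteins also bind calcium through EF hands, but they act through the CIPK kinases, which they recruit to membranes, where channels and transporters are phosphorylated. Calcium gradients are known to guide the tip growth of pollen tubes, and calcium-dependent protein kinases (CPK), which join a calcium sensor and a kinase in a single protein, act beside these families.

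Spikelets, the flower units of rice, were compared between the japonica rice cultivar ZH11 (Zhonghua 11) and plants of that background with an RNA interference construct against OsCPK21, a calcium-dependent protein kinase. Field-grown, untreated plants were sampled at anther stage 9, when microspores are young, and at stage 12, when pollen matures. The RNAi plants came from 3 lines, per the labels. Neither pooling of the lines nor the promoter of the construct is stated in the sources used here. Each of the 4 groups was 1 Affymetrix Rice Genome Array, so no value has a replicate spread, an SD or a test. Precision is limited throughout by having so few arrays.

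Groups follow the sample titles. A genotype field in the labels is swapped relative to the titles on all 4 samples, and the directions between genotypes would turn if that field were the right one. The signal of OsCPK21 itself was 1940 (ZH11) and 206 (RNAi) at stage 9, then 2719 and 17.6 at stage 12, so the arrays titled RNAi were the low ones at both stages. The trimmed mean signal of the 4 arrays lay between 333 and 367. Signs of RNA quality moved with stage: the ratio of 3-prime to 5-prime signal of the actin control was 3.89 and 4.2 at stage 9 and 10.3 and 8.53 at stage 12, in ZH11 and RNAi in that order. Their part in the results was not tested.

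Signals are on the linear scale of the deposited table. For ratios, a signal under a floor of 71.1 was raised to it. A gene is called higher or lower where its signals differed by 2-fold or more and at least 1 of them exceeded the floor. Where 1 of the arrays compared did not exceed the floor, the fold is written "at least", and where neither did, no fold is given. Of the 57 sensor genes 47 were above the floor on all 4 arrays, 8 on 1 to 3 arrays, and CML17 and CIPK12 on none, although the other probe set of CIPK12 read 112 and 118 at stage 9. In any comparison the counts below are over the genes above the floor on either of its arrays.

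**Figure D1:**
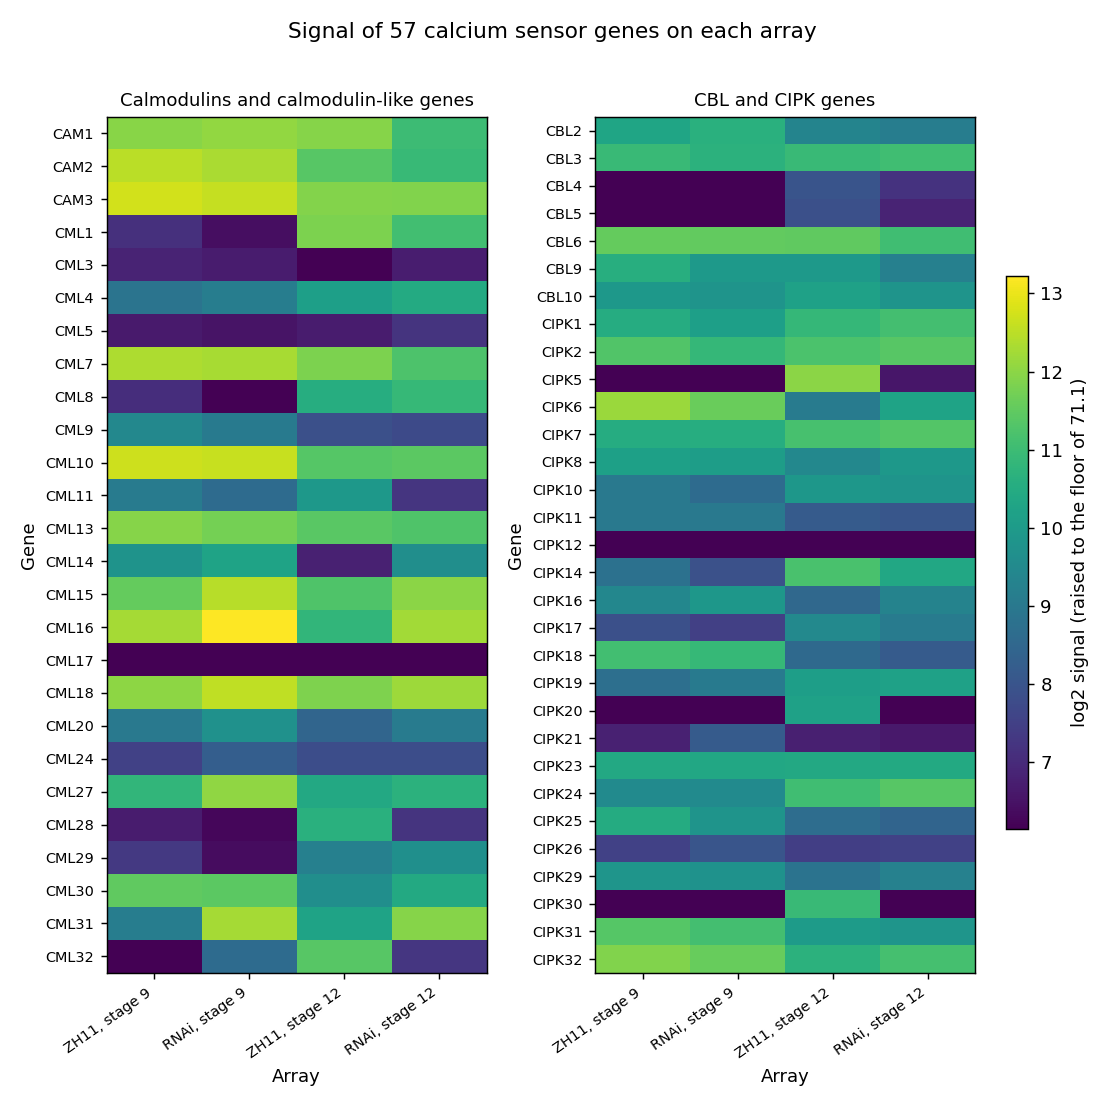
Each row is 1 of 57 sensor genes and each column 1 array; the colour is the log2 signal, with signals under 71.1 raised to it. CIPK5, CIPK20 and CIPK30 did not exceed the floor on either stage 9 array and reached signals of 4073, 1175 and 1981 on the ZH11 stage 12 array.

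Maturation of ZH11 spikelets went with changes of signal level in both directions among the sensor genes. Above the floor in ZH11 were 49 of the 57 at stage 9 and 54 at stage 12. At stage 12, 16 of 55 sensor genes were higher than at stage 9 and 12 were lower. These are 29.1% and 21.8% of the sensor genes, against 17.1% and 15.7% of all genes. The median log2 ratio was -0.05 for the sensor genes and 0.07 for all 16378 genes compared. In 8 sensor genes the ratio was at least 4-fold upward: CML1, CML8, CML28, CML32, CIPK5, CIPK14, CIPK20 and CIPK30. The share of all genes past 4-fold is not given here, so this count has no background beside it.

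The calmodulins did not share in the upward change in ZH11. CAM1 had signals of 4025 at stage 9 and 3904 at stage 12, CAM3 had 6782 and 3829, and CAM2 had 5794 and 2673, which made CAM2 2.17-fold lower at stage 12. The synonyms of CAM1 include CAM1-1, CAM1-2 and CAM1-3, so its probe set may stand for more than 1 locus.

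Among the CML genes 7 of 22 were higher and 5 lower at stage 12 in ZH11. These are 31.8% and 22.7%, against 17.1% and 15.7% of all genes. CML1, also known as CAM61, a calmodulin-like protein with a long prenylated tail, had a signal of 140 at stage 9 and 3648 at stage 12, 26.1-fold higher. CML32 had 35.4 and 2687, at least 37.8-fold higher. CML28 had 103 and 1603, a 15.6-fold difference, and CML8 had 134 and 1504, an 11.2-fold one. These 4 genes were near or below the floor at stage 9 and far above it at stage 12. CML29, CML4 and CML31 were 3.72-fold, 2.42-fold and 2.13-fold higher. CML14 ran the other way, with signals of 886 and 112, 7.9-fold lower at stage 12. CML30, CML9, CML16 and CML10 were also lower, by 3.58-fold, 2.98-fold, 2.77-fold and 2.49-fold.

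Of the 7 CBL genes, CBL4 and CBL5 were higher at stage 12 in ZH11 and the others were within 2-fold. That is 28.6% higher and 0% lower, against 17.1% and 15.7% of all genes. CBL4 is the rice counterpart of SOS3, a salt tolerance sensor. Its signal was 44.0 at stage 9 and 255 at stage 12, at least 3.58-fold higher. CBL5, which the gene table also lists as CBL2, had 43.2 and 237, at least 3.33-fold higher. Both were dim at stage 12 as well, and with a floor of 2 times the size neither passed 2-fold (log2 0.84 and 0.74). CBL2, CBL3, CBL6, CBL9 and CBL10 had signals between 653 and 2990 on the ZH11 arrays.

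Of 23 CIPK kinases 7 were higher and 6 lower at stage 12 in ZH11, 30.4% and 26.1%, against 17.1% and 15.7% of all genes. CIPK5 had a signal of 35.1 at stage 9 and 4073 at stage 12, at least 57.3-fold higher. CIPK30 went from 26.3 to 1981, at least 27.9-fold, and CIPK20 from 36.1 to 1175, at least 16.5-fold. All 3 were below the floor at stage 9. CIPK14, which in rice takes part in the response to a fungal elicitor with its near copy CIPK15, had signals of 442 and 2335, 5.28-fold higher. Its probe set may not tell these copies apart. CIPK17, CIPK24 and CIPK19 were 3.02-fold, 2.84-fold and 2.58-fold higher. CIPK24 is the rice counterpart of SOS2, the kinase that partners CBL4. CIPK6 had signals of 4547 and 544, 8.36-fold lower at stage 12, and CIPK18 had 2176 and 377, 5.77-fold lower. CIPK25, CIPK31, CIPK32 and CIPK29 were lower by 3.48-fold, 2.5-fold, 2.27-fold and 2.01-fold.

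**Figure D2:**
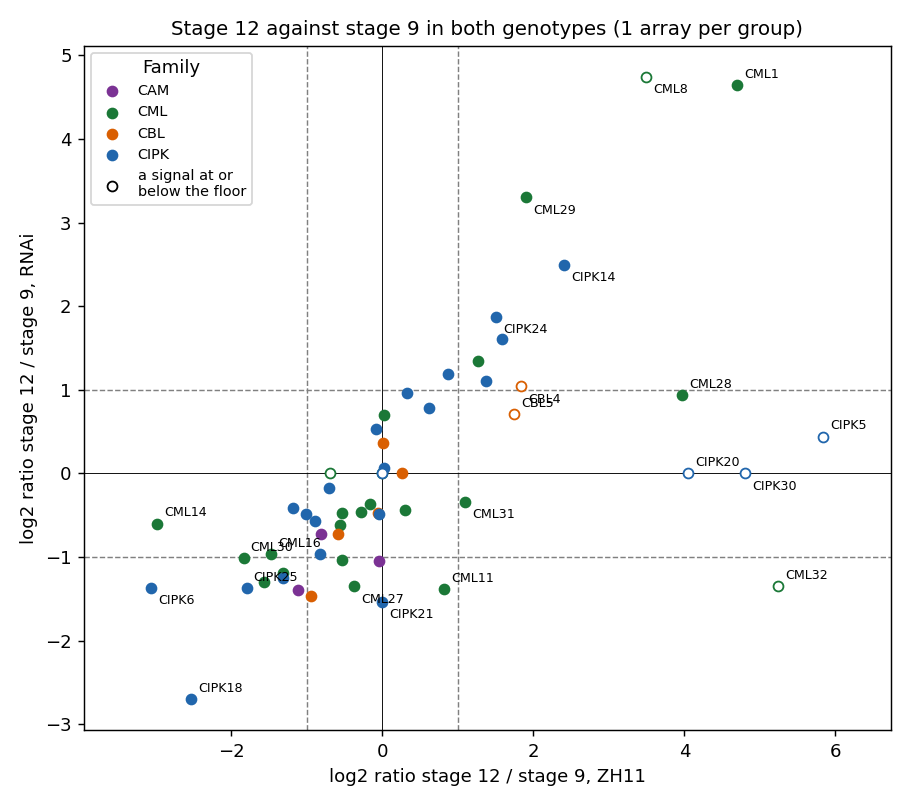
Each point is a sensor gene; the x axis is the log2 ratio of stage 12 to stage 9 in ZH11 and the y axis the same in RNAi, with dashed lines at 2-fold and open points where a signal was at or below the floor. CML1, CML8 and CIPK14 lie high on both axes, while CIPK5, CIPK20, CIPK30 and CML28 lie far right near a y value of 0 to 1 and CML32 lies below it.

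In RNAi spikelets 10 of 53 sensor genes were higher at stage 12 (18.9%, against 14.9% of all genes) and 15 were lower (28.3%, against 15.8%). With a common median, and likewise after quantile normalization, 12 were higher and 12 lower. The difference of these counts from those in ZH11 was not tested. The median log2 ratio was -0.46 for the sensor genes, while that of all 16056 genes compared lay at 0.00 after rounding. The stage comparisons of the genotypes share no array. Over the 55 sensor genes above the floor on any array, 17 passed 2-fold in the same direction in both genotypes (30.9%, against 20.9% of all genes). CML32 passed it in opposite directions (1.82%, against 0.553%). Another 10 passed it in ZH11 and not in RNAi (18.2%, against 10.9%), and 7 in RNAi and not in ZH11 (12.7%, against 8.22%). Whether a gene that passed 2-fold in 1 genotype differs from the other genotype was not tested. Across the same 55 sensor genes Pearson's correlation between the log2 stage ratios in ZH11 and in RNAi was 0.60, against 0.74 over 16625 genes of the array. Genes are not replicates, and all of them share the same 4 arrays.

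The sensors that were higher at stage 12 in both genotypes were CML1, CML4, CML8, CML29, CBL4, CIPK14, CIPK17, CIPK19 and CIPK24. In RNAi, CML1 had a signal of 86.0 at stage 9 and 2148 at stage 12, 25-fold higher. CML8 had 58.6 and 1903, at least 26.8-fold higher. CML29 had 83.1 and 816, a 9.82-fold difference, and CIPK14 had 239 and 1340, a 5.61-fold one. Of the genes lower at stage 12 in ZH11, 8 of 12 were lower in RNAi as well (CAM2, CML9, CML10, CML30, CIPK6, CIPK18, CIPK25 and CIPK31). The matching share of all genes lower in ZH11 is not given here, so this count has no background beside it. CIPK18, with signals of 1891 and 291 in RNAi, was 6.5-fold lower there and 5.77-fold lower in ZH11. CAM1, CML7, CML11, CML27, CBL2 and CIPK21 were lower and CIPK10 was higher in RNAi while within 2-fold in ZH11. CAM1, CML7 and CML30 had log2 ratios of -1.05, -1.04 and -1.01 in RNAi, and all 3 were within 2-fold both with a common median (-0.94, -0.93 and -0.89) and after quantile normalization (-0.95, -0.95 and -0.90). With the mean of probe sets, CML10 was within 2-fold in ZH11 and RNAi (-0.72 and -0.71), CML27 in RNAi (-0.84) and CIPK32 in ZH11 (-0.74). With a floor of 2 times the size CBL4 was within 2-fold in RNAi too (0.04). CIPK10 passed 2-fold in ZH11 as well with the mean of probe sets (1.19). CML28 passed it in RNAi with a common median (1.06) and after quantile normalization (1.05). Without a floor, with log2(signal + 16), CBL5 (1.41) and CIPK5 (1.23) passed it in RNAi.

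At stage 12, RNAi spikelets had low signals for several sensors that were brighter in ZH11, though CBL5 was dim in both genotypes. Of 55 sensor genes 7 were lower in RNAi: CML11, CML28, CML32, CBL5, CIPK5, CIPK20 and CIPK30. That is 12.7%, against 7.03% of all genes. Another 4 were higher (CML14, CML16, CML31 and CIPK6), 7.27% against 2.85%. The other 44 were within 2-fold, and the median log2 ratio was 0.00 for the sensor genes and 0.02 for all 15966 genes compared. CBL5 was the lower gene nearest the threshold (log2 -1.03) and CAM1 the nearest outside it (-0.92). On the higher side these were CIPK6 (1.16) and CML30 (0.79).

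Of the 3 lower kinases, CIPK5 read 4073 in ZH11 and 96.2 in RNAi, a 42.3-fold lower signal. CIPK30 had 1981 and 18.4, at least 27.9-fold lower, and CIPK20 had 1175 and 25.2, at least 16.5-fold lower. On the other 3 arrays CIPK20 and CIPK30 lay below the floor throughout, so ZH11 at stage 12 was the only array of the 4 on which either was detected above it. CIPK30 has CIPK12 as its immediate neighbour in the genome, and CIPK12 stood between 46.9 and 63.2 on all 4 arrays. CIPK13, which is separated from CIPK5 by 1 gene, was not analysed here.

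Among the lower calmodulin-like genes, CML32 read 2687 in ZH11 and 154 in RNAi, a 17.5-fold lower signal. CML28 had 1603 and 148, 10.8-fold lower, and CML11 had 964 and 151, 6.39-fold lower. CML11 differed from the rest in its stage pattern in ZH11, where it was within 2-fold. It had a signal of 546 at stage 9 in ZH11 and was 1.77-fold higher at stage 12. In RNAi it was 2.6-fold lower at stage 12 than at stage 9, and CML32 was lower there too, by 2.55-fold. CBL5 had signals of 237 and 116, 2.04-fold lower, and it was within 2-fold under both other scalings (log2 -0.87 with a common median, -0.85 after quantile normalization). It was within 2-fold as well with a floor of 2 times the size (-0.74) and without a floor, with log2(signal + 16) (-0.94).

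The 8 sensors that were at least 4-fold higher at stage 12 in ZH11 fell into those with low and those with high signals in RNAi. CML28, CML32, CIPK5, CIPK20 and CIPK30 had RNAi signals of 18.4 to 154 at stage 12. CML1, CML8 and CIPK14 had RNAi signals of 1340 to 2148, and were within 2-fold of ZH11 (log2 -0.76, 0.34 and -0.80). The stage comparison in ZH11 and the genotype comparison at stage 12 share the ZH11 stage 12 array, so the values are set side by side only.

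Markers of late pollen, a list chosen with earlier results of these data known, were set beside these genes. Of 12 markers asked for, 7 were on the array under these names. All 7 were higher at stage 12 in ZH11 (17.1% of all genes were) and lower in RNAi at stage 12 (7.03% of all genes). Their summed signal was 443 and 432 at stage 9 in ZH11 and RNAi, 44734 at stage 12 in ZH11 and 432 at stage 12 in RNAi. CML1, CML8 and CIPK14 did not share the low RNAi signals at stage 12. EXPB9, EXPB10, MST5 and ADF6 were below the floor at stage 12 in RNAi, with signals of 56.4, 14.4, 19.0 and 50.3. The 7 markers of floral organs and green tissue were all within 2-fold between genotypes at stage 12, with summed signals of 23444 in ZH11 and 25678 in RNAi. In whole spikelets, fewer cells of a type and less RNA per cell cannot be told apart, and the part of pollen content in the sensor values was not tested.

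Higher signals in RNAi at stage 12 were found for genes of several patterns. CML14 had 112 in ZH11 and 808 in RNAi, 7.2-fold higher, and CML16 had 1774 and 4853, 2.74-fold higher. CIPK6 had 544 and 1213, 2.23-fold higher. These 3 were among the 12 genes that were lower at stage 12 than at stage 9 in ZH11. Both comparisons use the ZH11 stage 12 array, so a low value there enters each of them. The share of all genes with both calls is not given here, and the values are set side by side only. From stage 9 to stage 12 CML14 was 7.9-fold lower in ZH11 and 1.52-fold lower in RNAi, and CIPK6 was 8.36-fold and 2.58-fold lower. CML31 read 1221 and 3929, 3.22-fold higher, and it stood higher in RNAi at stage 9 too. Markers of the tapetum, the anther layer that feeds microspores, summed to 1798 in ZH11 and 3542 in RNAi on the stage 12 arrays. RAFTIN1 was higher in RNAi, with 199 and 2149, and differed by more than the sum did, so the higher sum rests on this gene alone. OsC6 was lower, with 162 and 37.8, and the other tapetum markers were not past 2-fold. Of 9 markers above the floor on either array 1 was thus higher and 1 lower (11.1% each, against 2.85% and 7.03% of all genes). The part of these cells in the sensor values was not tested.

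**Figure D3:**
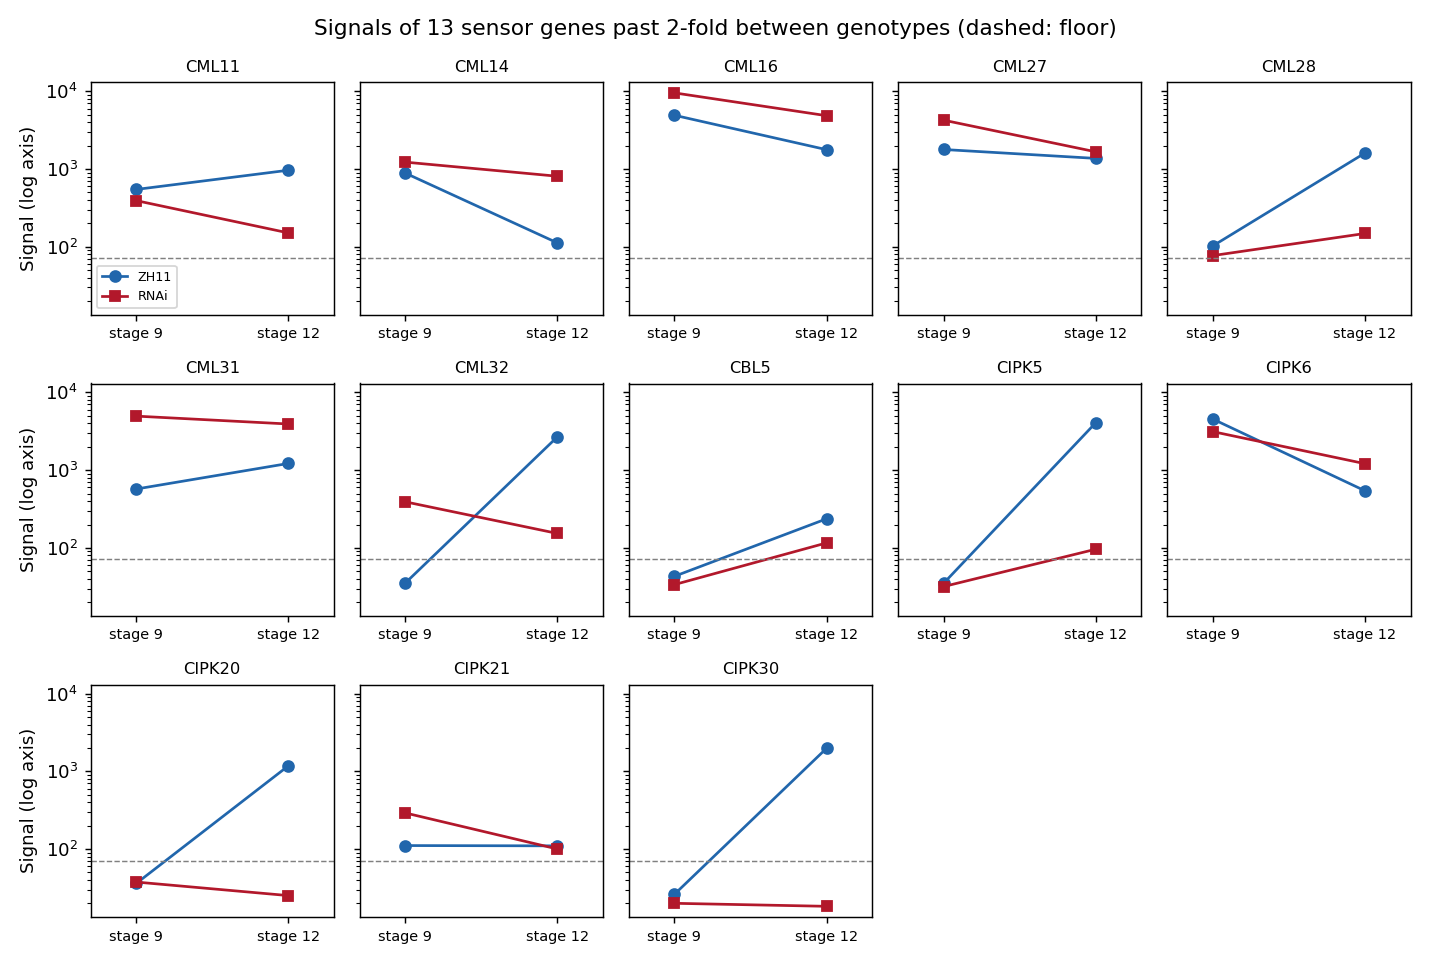
Each panel is 1 of the 13 sensor genes past 2-fold between genotypes at either stage, with the signal on a log axis at stages 9 and 12 for ZH11 (circles) and RNAi (squares), 1 array per point, and the floor of 71.1 as a dashed line. CIPK5, CIPK20, CIPK30 and CML28 are high in ZH11 at stage 12 alone, CML32 is highest there and also above the floor on both RNAi arrays (392 and 154), CML31 is higher in RNAi at both stages, and the lines of CML32 cross.

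At stage 9, 4 of 50 sensor genes were higher in RNAi spikelets and none lower. CML31 read 572 in ZH11 and 4959 in RNAi, an 8.67-fold higher signal. CML32 had 35.4 and 392, at least 5.51-fold higher. CIPK21 had 111 and 292, 2.63-fold higher, and CML27 had 1783 and 4250, 2.38-fold higher. The higher genes were 8% of the sensor genes, against 3.28% of all genes, and the lower ones 0%, against 2.27%. The median log2 ratio was -0.09 for the sensor genes and -0.04 for all 15358 genes compared.

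The 46 sensor genes within 2-fold at stage 9 included all 3 calmodulins, with log2 ratios from -0.19 to 0.09, and the 5 CBL genes above the floor, from -0.62 to 0.33. CML16 stood just outside the threshold, with signals of 4913 in ZH11 and 9534 in RNAi (log2 0.96), and it passed 2-fold with a common median (1.02) and after quantile normalization (1.04). CML15 had signals of 2988 and 5594 (0.90). On the lower side CML29, with 161 and 83.1, was nearest (-0.96). CIPK14 had 442 and 239 (-0.89), and CML8 had 134 and 58.6, a ratio of at least 1.88-fold. CML28, CIPK5, CIPK20 and CIPK30, all lower in RNAi at stage 12, had signals of 20.1 to 103 on the stage 9 arrays.

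Tapetum markers did not all move alike between genotypes at stage 9. Of 15 asked for 10 were on the array. In RNAi 5 were lower (50%, against 2.27% of all genes) and 1, PTC1, was higher (10%, against 3.28%). The other 4 (TDR, TIP2, CYP703A3 and OsC4) were within 2-fold. The summed signal of the 10 was 49850 in ZH11 and 30893 in RNAi, with OsC6 at 8767 and 45.4 and AP25 at 8803 and 3760. Meiocyte markers (4 of 5 on the array) were within 2-fold between genotypes at both stages, with summed signals of 1917 and 2451 at stage 9. Neither list's part in the sensor values was tested.

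Between genotypes 13 of 55 sensor genes passed 2-fold at either stage (23.6%, against 13.4% of all genes). At both stages 2 of them passed it (3.64%, against 1.17%). That is 15.4% of the 13, against 8.73% of the 2234 such genes of the whole array. CML31 was higher in RNAi at both, and CML32 was higher at stage 9 and lower at stage 12. CML31 read 4959 and 3929 on the RNAi arrays and 572 and 1221 on the ZH11 arrays, at stages 9 and 12 in that order. The other 11 passed 2-fold at 1 stage. As the genotype effect at stage 12 minus that at stage 9, on the log2 scale, 4 of 55 sensor genes differed by at least 1 in the positive direction (7.27%, against 5.79% of all genes) and 10 in the negative (18.2%, against 9.05%). With a common median, and likewise after quantile normalization, the negative ones numbered 8. The negative ones included CML32 (-6.59), CIPK5 (-5.40), CIPK30 (-4.80), CIPK20 (-4.05), CML28 (-3.02) and CML11 (-2.20). The positive ones were CML14 (2.38), CIPK6 (1.69), CML29 (1.40) and CML8 (1.25). CML29 and CML8 were within 2-fold between genotypes at each stage, with RNAi stage 9 signals of 83.1 and 58.6, near or below the floor. With a floor of 2 times the size the positive ones numbered 2, without CML29 and CML8. For CML32, CIPK5, CIPK30, CIPK20 and CML8 signals were raised to the floor, so the sizes depend on it. Across 55 sensor genes Pearson's correlation between the genotype ratios at stages 9 and 12, which share no array, was 0.07, and over all genes it was 0.04.

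**Figure D4:**
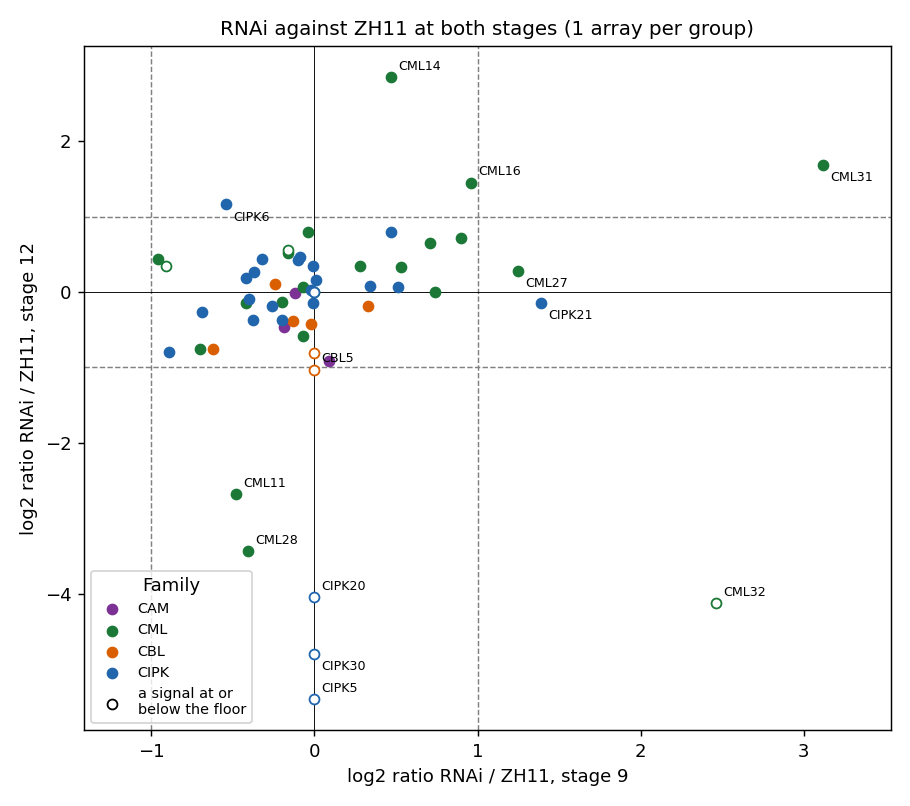
Each point is a sensor gene; the x axis is the log2 ratio of RNAi to ZH11 at stage 9 and the y axis that at stage 12, with dashed lines at 2-fold and open points where a signal was at or below the floor. CML31 is the point beyond 2-fold upward on both axes, and CML32 the one beyond it upward at stage 9 and downward at stage 12.

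Of the 55 sensor genes above the floor on any array 20 were within 2-fold in all 4 comparisons, 36.4%, against 57.8% of all genes. They included CAM3, CBL3, CBL6, CBL9, CBL10 and CIPK8. CML5 was among them too, but with the mean of its probe sets it passed 2-fold between stages in RNAi (1.13). CBL3 had signals of 1958 and 1663 at stage 9 and 1975 and 2135 at stage 12, in ZH11 and RNAi. CIPK23, which activates the potassium channel AKT1 with CBL1, had 1358, 1342, 1376 and 1403 in the order ZH11 and RNAi at stage 9, then ZH11 and RNAi at stage 12. Its other probe set read 821, 157, 1083 and 1114 in the same order, a log2 ratio of -2.39 between genotypes at stage 9, so the level of this gene at stage 9 depends on the probe set. CAM3 had 6782, 6241, 3829 and 3781, within 2-fold in each comparison.

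Several calmodulin-like genes gave bright signals on all arrays, given here in the order ZH11 and RNAi at stage 9, then ZH11 and RNAi at stage 12. CML18 read 4134, 5971, 3674 and 4631, and CML15 read 2988, 5594, 2464 and 4071. For both genes the RNAi signal was above the ZH11 signal at each stage, by less than 2-fold. CML16 read 4913, 9534, 1774 and 4853, with the RNAi signal again the higher at each stage and past 2-fold at stage 12. CML7 read 5263, 4998, 3627 and 2425, and CML10 read 6593, 6280, 2645 and 2756. In these last genes the stage 12 signals were below the stage 9 signals in both genotypes. CML20 read 519, 845, 352 and 551, within 2-fold in each comparison, and CML24 read 184, 308, 227 and 228.

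In the same order, CBL6 read 2990, 2955, 2860 and 2126, and CBL10, a sensor of the kind that acts in salt tolerance in Arabidopsis, read 976, 889, 1164 and 897. CBL9 read 1526, 990, 1011 and 596, lower in RNAi than in ZH11 at each stage by less than 2-fold, and its probe sets are marked as matching other transcripts too. CBL2, whose Arabidopsis namesake sits at the vacuolar membrane, read 1262, 1584, 653 and 572. It was 1.93-fold lower at stage 12 in ZH11 and 2.77-fold lower in RNAi, so the groups fell on either side of the threshold while the direction was shared.

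Among the kinases, CIPK2 read 2500, 1866, 2363 and 2691, and CIPK7 read 1481, 1492, 2284 and 2557. CIPK1 read 1464, 1130, 1844 and 2203. None of these 3 probe sets passed 2-fold in any comparison. The other probe set of CIPK7 read 44.3, 73.5, 364 and 412, with log2 stage ratios of 2.36 (a bound) in ZH11 and 2.48 in RNAi, so the stage pattern of this gene depends on the probe set. With the mean of its probe sets CIPK7 was called higher at stage 12 in both genotypes (1.83 and 1.63). CIPK1 had a log2 stage ratio of 0.96 in RNAi and passed 2-fold with a common median (1.08) as well as after quantile normalization. CIPK32 read 3783, 3029, 1665 and 2258, past 2-fold between stages in ZH11 and not in RNAi (1.34-fold lower). CIPK24, the SOS2 counterpart, read 740, 736, 2105 and 2688, and CIPK19 read 426, 539, 1100 and 1162. In both genes the genotypes lay within 1.28-fold of each other at each stage while stage 12 exceeded stage 9 by more than 2-fold. CIPK25 read 1435, 890, 413 and 343, lower at stage 12 in both genotypes, and CIPK16 read 685, 945, 370 and 638, with the RNAi signal above ZH11 at each stage by less than 2-fold. CIPK12, of which more expression makes rice tolerate drought, was the 1 kinase whose chosen probe set stayed under the floor on all arrays.

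Probe sets of the same gene were set against each other in the 12 sensor genes with more than 1. The 2 probe sets of CBL9 gave log2 genotype ratios of -0.62 and -0.71 at stage 9 and -0.76 and -1.05 at stage 12. CIPK10 had 4 probe sets, with log2 stage ratios in ZH11 from 0.23 to 2.83, the latter a bound. Those of CML27 were 1.25 and 0.82 between genotypes at stage 9 and differed in sign at stage 12 (0.28 and -0.77). The chosen probe set of CML5 gave 0.52 between genotypes at stage 12 and 0.70 between stages in RNAi. Its other probe set, with signals near the floor on most arrays, gave 1.42 and 1.56. None of the 7 genes lower in RNAi at stage 12 had a further probe set. Over all genes with several probe sets above the floor, the SD of the log2 genotype ratio within a gene was 0.251 at stage 9 and 0.318 at stage 12. This covers probe differences on the same arrays, not the spread between plants.

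Some sensor genes sit side by side in the genome, and neighbours did not always share a pattern. CIPK30 read 1981 on the ZH11 stage 12 array, where the chosen probe set of its neighbour CIPK12 read 63.2. CAM2 and CML9 are adjacent, and both were lower at stage 12 in both genotypes. CIPK2 and CIPK29 are adjacent; in ZH11 CIPK2 had signals of 2500 and 2363 and CIPK29 had 919 and 457, log2 ratios of -0.08 and -1.01. CIPK29 lay on the threshold and was within 2-fold with a common median (-0.99) and without a floor (-0.98), so these neighbours are not set apart by the call. CIPK32 and CML3 are adjacent as well. CIPK32 had 3783 and 1665 in ZH11, and CML3 had 116 and 70.0, the second below the floor.

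Other genes of calcium signalling are set beside the shares of all genes called in RNAi, 3.28% higher and 2.27% lower at stage 9, and 2.85% higher and 7.03% lower at stage 12. The CPK list held 20 genes, of which 5 were called lower in RNAi on the stage 12 arrays (25%) and none was called higher. OsCPK21, the target of the construct, was 1 of the 5. The other 4 were CPK2, CPK6, CPK22 and CPK29, which had signals of 1655 to 3027 at stage 12 in ZH11 and of 18.9 to 32.5 in RNAi. The pattern of high signal on the ZH11 stage 12 array alone was thus also found among them, as in CIPK5, CIPK20 and CIPK30. Of 9 channels and pumps, ACA1, a calcium ATPase, had 3751 in ZH11 and 78.9 in RNAi at stage 12 and was the 1 gene lower. At stage 9 CPK4 (956 in ZH11 and 2378 in RNAi) and ACA7 (219 and 1440) were the genes higher in RNAi in these lists.

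Transporters of the kind that CBL and CIPK proteins act on were matched for 25 genes, the potassium channel AKT1, potassium transporters (HAK) and ammonium transporters (AMT1). AKT1 read 234 (ZH11) and 784 (RNAi) at stage 9, then 237 and 508 at stage 12, higher in RNAi at both stages. HAK7 had 1154 and 2784 at stage 9 and 3261 and 3518 at stage 12. At stage 12, HAK26 had 1439 in ZH11 and 61.1 in RNAi, and on both stage 9 arrays it was under the floor. HAK2 and HAK20 were lower and HAK16 and HAK22 higher in RNAi at stage 12. In this list 2 of 19 genes were higher and none lower at stage 9 (10.5% and 0%, against 3.28% and 2.27% of all genes), and 3 of 23 were higher and 3 lower at stage 12 (13% each, against 2.85% and 7.03%). No gene of the calmodulin-binding list was matched, and CCaMK, a calcium and calmodulin-dependent kinase, was within 2-fold throughout.

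**Figure D5:**
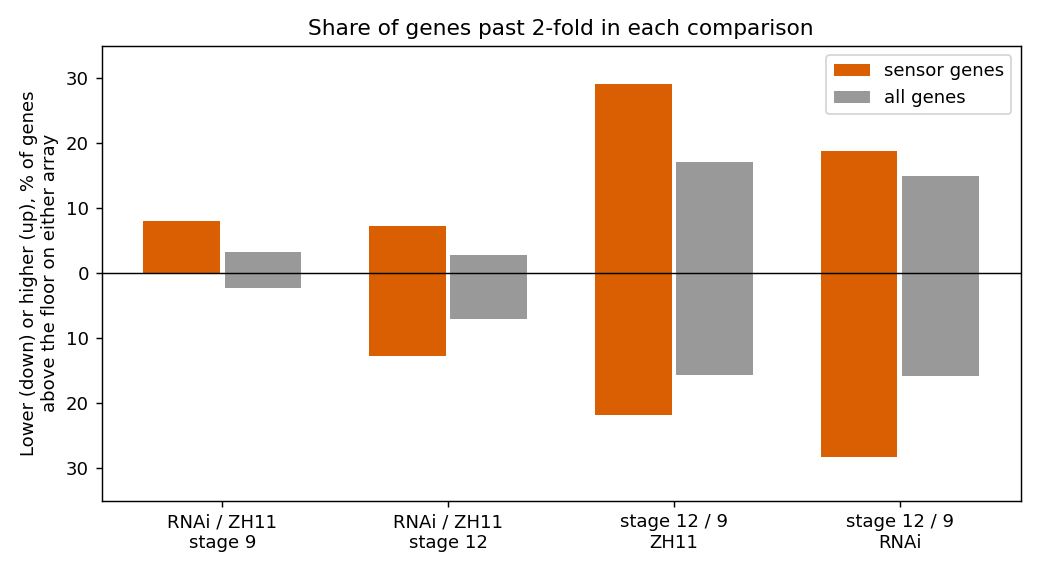
Bars give the percentage of genes past 2-fold, higher above 0 and lower below it, among genes above the floor on either array, for the sensor genes and for all genes. In the genotype comparison at stage 12 the bars of the sensor genes reach 7.27% higher and 12.7% lower, against 2.85% and 7.03% of all genes.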

How the data were processed

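Expression was measured on 4 Affymetrix Rice Genome Arrays of spikelet RNA, 1 per group. The authors deposited linear intensities, with 1 value for each probe set and array. MAS5 was the tool, per the submitters' processing notes, and its version and settings are unstated. The table held 57381 probe sets, and the platform annotation gave 1 gene for 22436, several for 95 and none for the rest, controls aside. Gene names came from the RefSeq table of assembly ASM3414082v1, used for names and gene order only. The probe set with the highest mean log2 signal stood for a gene. The floor of 71.1 was the mean of the arrays' trimmed means (2% off each end) divided by 5. Ratios were computed in Python 3.11.15 with pandas 2.3.3, tested on simulated data, and with 1 array per group no test was made. The members, lists and thresholds were chosen with earlier results of these data known. Genes named were those past 2-fold between genotypes, past 4-fold between stages, near the threshold, or bright in their family, with partner and marker lists beside them. From the marker lists 3 genes that carry a marker's name but are other proteins were removed. Alternatives were 2 other scalings, other floors, other probe set rules and a 4-fold threshold. No sequence table was used here.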

Additional observations from a re-analysis of the deposited data

Results flagged for a closer look

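CML32 stood out because its genotype effect had opposite directions at the stages, each past 2-fold, and so had its stage change in the genotypes. Its signals were 35.4 in ZH11 and 392 in RNAi at stage 9, and 2687 and 154 at stage 12. The genotype effect at stage 12 minus that at stage 9 was -6.59 on the log2 scale, and the stage change in RNAi minus that in ZH11 is the same number by arithmetic. The ZH11 stage 9 signal was below the floor, so the size is a bound. With 1 array per group the difference was not tested, and the gene was read by 1 probe set.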

How the results depend on the processing

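No paired analysis was possible because each group held 1 array and the labels give no replicate numbers. Scaling to a common median moved the median log2 genotype ratio of all genes above the floor on both arrays at stage 12 from 0.03 to 0.18, and quantile normalization to 0.16. Under these scalings the sensor genes lower in RNAi at stage 12 went from 7 to 6 (CBL5 left), the higher ones stayed 4, and the higher ones at stage 9 went from 4 to 5 (CML16 joined). The stage comparison in RNAi went from 10 higher and 15 lower to 12 and 12. The lower count at stage 9 went from 0 to 1 without a floor, with log2(signal + 16) (CML8, -1.01), and with the mean of all probe sets (CIPK23, -1.20). At 2 times the floor, sensor genes with a genotype effect more positive at stage 12 by at least 1 on the log2 scale went from 4 to 2, and with the mean of all probe sets from 4 to 6. At 4-fold in place of 2-fold, 2 sensor genes were higher in RNAi at stage 9, and at stage 12 1 was higher and 6 were lower. In ZH11 8 were higher and 3 lower at stage 12, and in RNAi 4 and 1. The genotype effect differed by at least 2 on the log2 scale upward in 1 and downward in 6. No share of all genes at these stricter thresholds is given here. No called ratio of a named gene changed sign under any alternative. Leaving out cross-matching probe sets left 53 of the 57 genes and changed no call. The alternatives for the difference of genotype effects were added after the data were seen. Low signals near the floor limit CBL4, CBL5 and the sizes of the bounds.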
